A study of Moricandia suffruticosa and Brassica napus with 23 samples.

Results

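DnaJ proteins, also called J proteins or HSP40 proteins, are co-chaperones of the HSP70 family, and the genes described here are those of oilseed rape (Brassica napus) that carry the conserved site of the DnaJ domain. Of 101040 genes in the table of values, 128 had the InterPro entry IPR018253 for that site as their assigned entry. They were selected on measured values as well, and 101 of them reached a level of 1 FPKM in at least 3 of the 9 leaf libraries of all groups together. FPKM divides the fragments of a gene by its coding length and by the assigned total of the library. The other 27 genes stayed below that level, 13 of them at 0 in all 9 libraries. The 101 genes have their best matches at 38 Arabidopsis loci, and 52 belong to the A subgenome and 49 to the C subgenome by their identifiers.

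The 9 libraries were made from polyadenylated RNA of leaves, in 3 groups of 3. Plants labelled 29005 had grown in soil for 35 days in a chamber at 25 °C with 60% humidity and 16 h of light. Drought leaves came from plants without water for 3 days, heat leaves from plants held at 40 °C for 3 h, and control leaves from plants without treatment. A further 14 samples, of the crucifer Moricandia suffruticosa, were not analysed here.

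J proteins bind unfolded or newly made proteins, hand them to HSP70 and stimulate the ATP hydrolysis by which HSP70 closes on its client. The J domain carries a histidine, proline and aspartate motif that contacts HSP70, and the rest of the protein sets the client and the compartment. Type A proteins hold a J domain, a glycine and phenylalanine rich stretch and a zinc-finger-like region, type B proteins lack the zinc-finger-like region, and the remaining J proteins share the J domain alone. Plants keep J proteins in the cytosol, the endoplasmic reticulum, mitochondria and plastids, and several are known as heat-shock genes.

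Each library held 12173799 to 12934919 assigned reads, which puts 12.2 to 12.9 reads behind a value of 1 FPKM where the coding length is 1 kb. Drought, heat and control leaves all expressed the leaf markers, 18 of 21 genes of which were tested. The summed level of these 21 genes was 23582 to 24527 FPKM in drought, 25617 to 26337 FPKM in heat and 31441 to 31920 FPKM in control. Of the 18 tested, 12 fell in drought, or 66.7%, beside 6.87% over all genes tested. In heat 3 of the 18 rose and 5 fell, or 16.7% and 27.8%, beside 14.4% and 11.2%. Flower marker genes summed to at most 2.21 FPKM in any library, with 7 of 17 at 0 throughout and 0 of 17 tested. Seed markers summed to 3.19 to 3.89 FPKM in drought, 21.6 to 24.8 FPKM in heat and 1.60 to 3.05 FPKM in control, with CRC (AT4G28520) at 0 in every copy. Of these 13 genes, 10 were at 0 throughout and 2 were tested, both of 1 locus and both higher in heat. Root markers summed to 14.8 to 15.1 FPKM in drought, 15.8 to 18.3 FPKM in heat and 21.9 to 24.7 FPKM in control. Phloem markers summed to 195 to 202 FPKM in drought, 285 to 288 FPKM in heat and 199 to 209.9 FPKM in control, and guard cell markers to 44.5 to 56.0 FPKM over all 9 libraries. The part of these shifts in the results below was not tested, and in whole leaves fewer cells of a type and less RNA per cell cannot be told apart.

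More DnaJ genes rose than fell in both treatments. In drought 17 of the 101 genes rose and 0 fell, and in heat 31 rose and 6 fell. Over all 44260 genes tested, 5.12% rose and 6.87% fell in drought, while 14.4% rose and 11.2% fell in heat. The median log2 change of the 101 genes was 0.39 in drought, beside -0.06 over all genes tested, and 0.29 in heat, beside 0.16 over all. A rise or fall here means a limma adjusted p under 0.05 together with a difference of 1 or more in log2(FPKM + 1), a scale on which low genes appear to change less than they do. Separate plants per library are not stated, so the tests rest on a spread that may be technical.

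The 0 falls in drought stand beside 7 genes that were lower at an unadjusted p under 0.05 in limma, and limma's voom on recovered reads also called 0. Of the 101 genes, 7 would not have reached the level without the heat libraries. Their choice favoured a rise in heat, so their rises are a description. Among the other 94, 16 rose and 0 fell in drought, and 24 rose and 6 fell in heat. The level chose the genes, and those nearest to it were BnaA07g30160D of the locus AT1G72416, whose 3 highest values were at least 1.25 FPKM, and BnaC02g18100D of ARG1, left out because the lowest of its 3 highest values was 0.991 FPKM. With TMM factors, which shift the median log2 change of all genes in heat by -0.15, the heat counts were 26 up and 9 down, and rises were 44.8% of the calls among all genes with these factors, against 56.2% without them. Drought and heat were set against the same 3 control libraries, so their changes against control are not independent of each other.

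**Figure D1:**
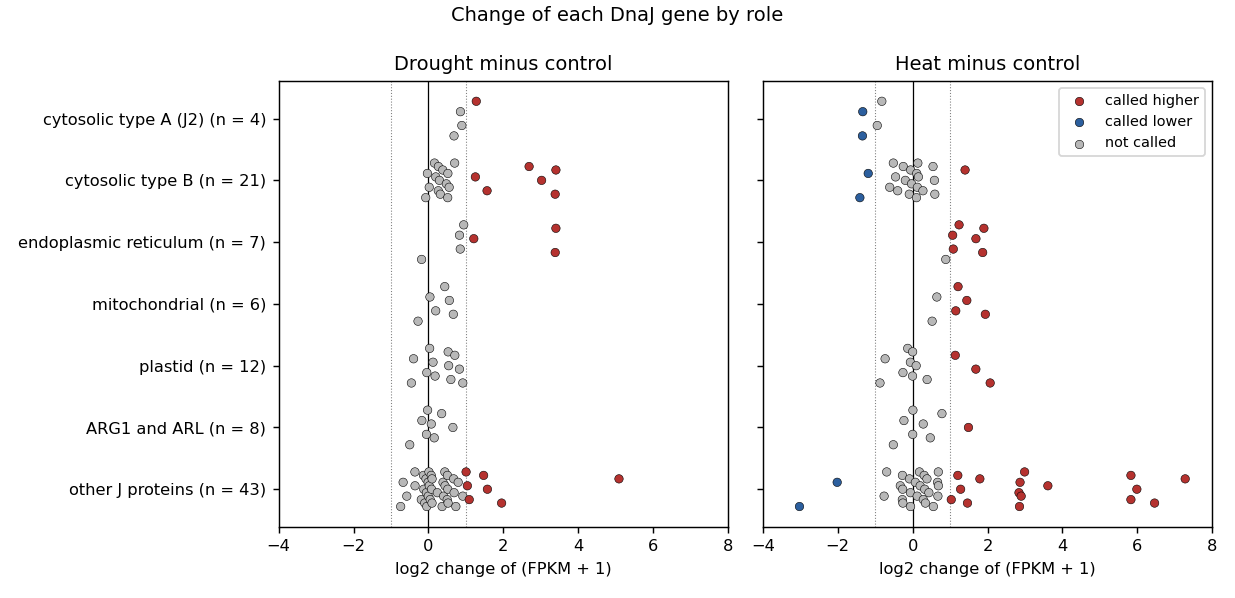
Log2 change of (FPKM + 1) of the 101 DnaJ genes in drought minus control (left) and heat minus control (right), by role. Each point is a gene, red where called higher, blue where called lower and grey where not called, with dotted lines at the threshold of 1. In drought no point is blue, while in heat the blue points lie among the cytosolic and other J proteins and the largest rises among the other J proteins.

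The summed level of the 101 genes was higher in drought than in the other groups. It was 4953, 4920.4 and 5016 FPKM in drought, 2633, 2643 and 2662 FPKM in heat and 2383, 2401 and 2404 FPKM in control. Drought libraries all lay above the rest, 2.07 times the control mean. Heat libraries lay slightly above control in these FPKM, at 1.10 times. TMM factors, which shift the median log2 change of all genes in heat by -0.15, were not applied to these sums. The order of heat and control in the sums may therefore depend on the scaling. Of the 2567 FPKM by which the summed mean was higher in drought, 49.0% lay in 3 genes, namely BnaA09g55990D and BnaA09g43710D of the locus AT2G20560 and BnaA10g14250D of J2.

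The makeup by role differed between the groups. Cytosolic type B genes summed to 1409 ± 20.8 FPKM in drought, 276 ± 10.5 FPKM in heat and 237 ± 1.45 FPKM in control (SD, n = 3 each, here and below). Type A genes summed to 1256 ± 6.38 FPKM in drought, 303 ± 8.24 FPKM in heat and 646 ± 7.35 FPKM in control. Type A transcripts were thus 25.3% of the sum in drought, 11.5% in heat and 27.0% in control. Genes of the endoplasmic reticulum summed to 296 ± 2.75 FPKM in drought, 229 ± 7.91 FPKM in heat and 89.1 ± 2.15 FPKM in control, above control in both treatments. Mitochondrial genes stood highest in heat, at 52.5 ± 1.94 FPKM in drought, 75.2 ± 0.822 FPKM in heat and 36.4 ± 0.878 FPKM in control. Genes assigned to the plastid role stood highest in drought, at 732 ± 12.7 FPKM in drought, 520 ± 4.19 FPKM in heat and 538 ± 3.27 FPKM in control. Of these sums, J20 held 452, 229 and 265 FPKM in the same order, while AT4G39960 was highest in control, at 79.6, 64.7 and 107 FPKM. The role leaves out NdhT, a chloroplast subunit counted with the other J proteins. NdhT was at 784 FPKM in drought, 88.9 FPKM in heat and 543 FPKM in control.

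**Figure D2:**
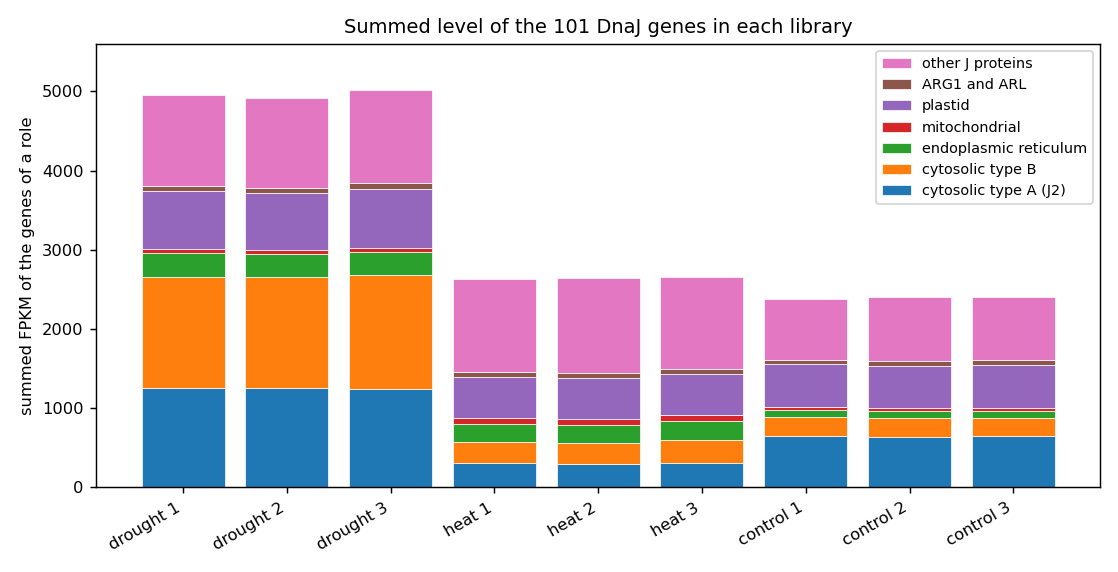
Summed FPKM of the 101 DnaJ genes in each of the 9 libraries, stacked by role. Drought libraries reach 4920.4 to 5016 FPKM, against 2633 to 2662 FPKM in heat and 2383 to 2404 FPKM in control, and the type B section is 1409 FPKM on average in drought and 237 FPKM in control.

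Of the 4 cytosolic type A genes, all copies of J2, 1 rose in drought and 2 fell in heat. Over all genes tested, 5.12% rose in drought and 11.2% fell in heat. J2 and its close relative J3 are farnesylated type A proteins that serve the cytosolic HSP70 machine. The copy BnaA10g14250D had 490.3, 483 and 467 FPKM in drought, 74.9, 80.4 and 78.3 FPKM in heat and 199, 197 and 196 FPKM in control. No library of any group overlapped with another group, with drought on top and heat at the bottom. Its log2 change was 1.28 ± 0.04 SE in drought (limma adjusted p = 2.47e-10) and -1.33 ± 0.04 in heat (adjusted p = 1.18e-10).

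The copy BnaA10g14240D had 246, 252 and 234 FPKM in drought, 54.3, 49.9 and 49.4 FPKM in heat and 125, 136 and 132 FPKM in control, in the same order of groups. It fell in heat, by -1.34 ± 0.05 SE on the log2 scale with a limma adjusted p = 1.46e-09, while its change of 0.89 ± 0.05 in drought stayed under the fold threshold. The remaining copies were under that threshold in both treatments. BnaA02g05430D changed by 0.68 in drought and -0.82 in heat, and BnaCnng47600D by 0.85 and -0.95 in the same order. With TMM factors 4 of 4 copies were called lower in heat, against 2 of 4 without. Reads that fit several near-identical copies may have been shared out in a way not stated, so single copies are uncertain. The 10 genes matched to the locus gave, when summed, a log2 change of 0.94 in drought and a called fall of -1.03 in heat.

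Cytosolic type B genes rose in drought at 2 loci, AT2G20560 and AT4G28480. Type B proteins of the cytosol work with HSP70 on unfolded proteins, and some of them are heat-shock genes. Of 21 genes, 6 rose in drought, whereas 1 rose and 2 fell in heat. The 6 are 28.6%, beside 5.12% over all genes tested. In heat the shares were 4.76% up and 9.52% down, beside 14.4% and 11.2% over all. The 6 were the 4 genes of AT2G20560 and the 2 genes of AT4G28480. The remaining 15 genes, of 4 loci, were not called in either treatment.

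The most abundant of the AT2G20560 copies over the 9 libraries was BnaA09g55990D, with 664, 653 and 666 FPKM in drought, 73.7, 74.8 and 78.5 FPKM in heat and 79.6, 79.5 and 82.7 FPKM in control. Drought libraries stood far above the rest, while heat lay just under control with no overlap. The log2 change was 3.02 ± 0.04 SE in drought (limma adjusted p = 2.92e-13) and -0.09 ± 0.04 in heat (adjusted p = 0.0562). Its relative BnaA09g43710D had 425, 436 and 445 FPKM in drought, 105, 106 and 112 FPKM in heat and 40.7, 39.6 and 40.3 FPKM in control, and was the copy of this locus that rose in heat as well. There the change was 3.40 ± 0.04 SE in drought and 1.40 ± 0.04 in heat, with limma adjusted p-values of 2.17e-13 and 1.61e-10 in the same order.

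A further copy went the other way in heat. BnaA03g49290D had 74.8, 66.5 and 70.4 FPKM in drought, 11.4, 9.41 and 10.2 FPKM in heat and 31.0, 27.2 and 28.9 FPKM in control, so that heat was the lowest group without overlap. It rose by 1.25 ± 0.08 SE in drought (limma adjusted p = 2.30e-07) and changed by -1.41 ± 0.08 in heat (adjusted p = 4.66e-08). The low copy BnaA01g08430D averaged 31.4 ± 3.88 FPKM in drought, 2.33 ± 0.433 FPKM in heat and 2.15 ± 0.783 FPKM in control, a log2 change of 3.38 in drought. Summed over its 4 copies, AT2G20560 rose by 2.97 in drought and was not called in heat, at 0.37.

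AT4G28480 gave a like picture with a pair of copies. BnaC01g09970D had 101.4, 99.9 and 107 FPKM in drought, 15.8, 16.6 and 17.9 FPKM in heat and 14.6, 15.6 and 15.1 FPKM in control, with heat and control close to each other. The rise in drought was 2.69 ± 0.06 SE (limma adjusted p = 4.71e-11), and the change in heat was 0.14 ± 0.06 (adjusted p = 0.0786). BnaC07g41340D, lower in every group, had 24.7, 24.0 and 22.5 FPKM in drought, 2.59, 2.92 and 2.53 FPKM in heat and 5.93, 8.16 and 8.21 FPKM in control. It rose in drought by 1.56 ± 0.12 SE and fell in heat by a log2 change of -1.19 ± 0.12, with limma adjusted p-values of 9.10e-07 and 4.97e-06 in the same order. The other type B loci were low, and the largest mean among their 15 genes was 12.8 ± 0.128 FPKM, of BnaA09g14490D in drought.

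**Figure D3:**
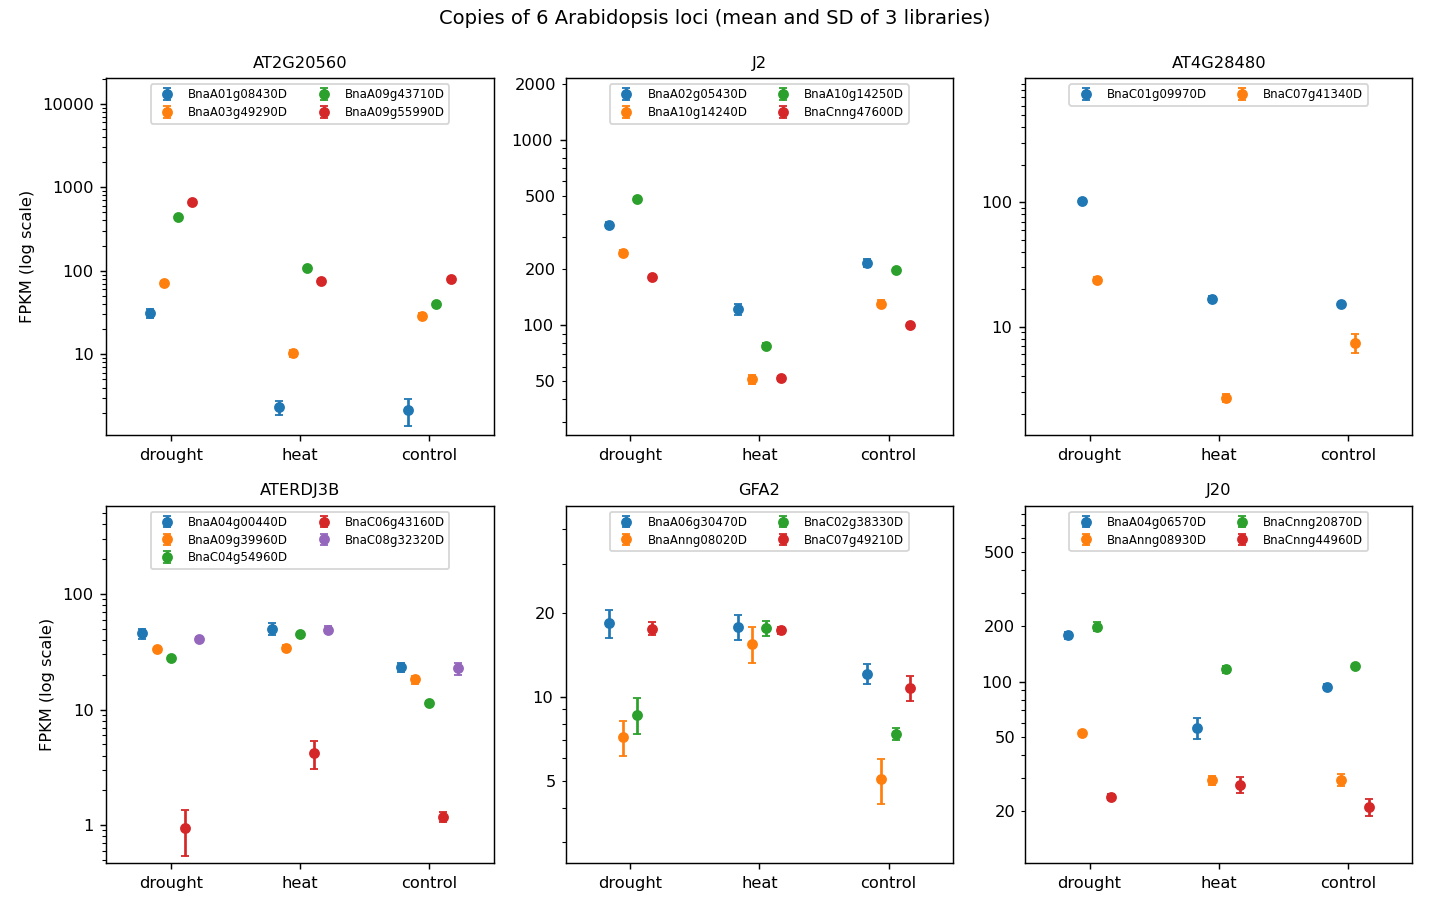
Mean FPKM (log scale) with SD of 3 libraries for each gene of 6 Arabidopsis loci in drought, heat and control, with colours marking the genes of a locus. Of the 4 copies of AT2G20560, all are highest in drought, while in heat BnaA09g43710D is above and BnaA03g49290D below control. For GFA2, BnaAnng08020D and BnaC02g38330D are highest in heat.

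Of the genes of the endoplasmic reticulum, 2 of 2 of ERDJ3A rose in each treatment, while ERDJ3B had 1 of 5 genes that rose in drought and 4 of 5 in heat. Both proteins lie in the lumen of the organelle and serve its HSP70, BiP. ERDJ3A is needed for pollen tube growth at high temperature in Arabidopsis, and ERDJ3B works with SDF2 in the folding of immune receptors there. Of 7 genes, 3 rose in drought and 6 in heat, or 4 in each with TMM factors. Without those factors, 5.12% of all genes tested rose in drought and 14.4% in heat.

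ERDJ3A had copies BnaCnng24180D, with 102, 100 and 97.9 FPKM in drought, 30.1, 30.4 and 30.1 FPKM in heat and 8.24, 9.83 and 8.04 FPKM in control, and BnaA05g29350D, with 45.5, 47.9 and 49.0 FPKM in drought, 15.04, 15.1 and 17.1 FPKM in heat and 3.31, 3.69 and 3.76 FPKM in control. In both, drought was highest, heat in between and control lowest, with no overlap. BnaCnng24180D rose by 3.38 ± 0.07 SE in drought (limma adjusted p = 1.93e-11) and by 1.69 ± 0.07 in heat (adjusted p = 4.09e-09). BnaA05g29350D rose by 3.40 ± 0.08 SE in drought and by 1.87 ± 0.08 in heat, with limma adjusted p-values of 4.36e-11 and 4.14e-09 in the same order.

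ERDJ3B had 5 genes, of which BnaC04g54960D rose in both treatments. It had 27.0, 27.8 and 28.5 FPKM in drought, 45.2, 44.6 and 46.5 FPKM in heat and 11.9, 11.3 and 11.1 FPKM in control, so that heat was the highest group. Its log2 change was 1.21 ± 0.06 SE in drought (limma adjusted p = 2.56e-08) and 1.90 ± 0.06 in heat (adjusted p = 3.43e-10). The more abundant copies BnaA04g00440D and BnaC08g32320D rose in heat by 1.07 and 1.09, and were at 0.94 and 0.83 in drought, under the threshold. BnaC06g43160D, a low copy, averaged 0.944 ± 0.399 FPKM in drought, 4.22 ± 1.18 FPKM in heat and 1.18 ± 0.113 FPKM in control, a rise of 1.24 ± 0.19 SE in heat. BnaA09g39960D was not called, with 0.85 in drought and 0.88 in heat. Summed over 6 genes, ERDJ3B rose by 1.24 in heat and was at 0.95, not called, in drought.

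Among the 6 mitochondrial genes, 4 were called higher in heat, but 2 of these reached the level through the heat libraries alone. That leaves 2 of 4, beside 14.4% over all genes tested. limma called 0 of the 6 in drought, where 3 were higher at an unadjusted p under 0.05 and voom also called 0. They are copies of GFA2, which is needed for fusion of the polar nuclei in the embryo sac of Arabidopsis, and of ATJ1. With TMM factors 3 were called higher in heat. The low copies of ATJ1 were seen mainly in heat. BnaC03g58400D had 0.0550, 0.271 and 0.471 FPKM in drought, 3.88, 3.58 and 3.61 FPKM in heat and 0.369, 0.261 and 0.0526 FPKM in control, which is 15 reads in drought, 211 in heat and 13 in control over 3 libraries. BnaA08g18500D had 3.53, 3.51 and 2.96 FPKM in heat, against 0.975, 0.724 and 0.912 FPKM in control, with 165 and 43 reads behind them. Both reached the level through the heat libraries alone, so their rises of 1.94 and 1.21 are a description.

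GFA2 copies fell into a pair that rose in heat and a pair that did not pass the threshold. BnaAnng08020D had 5.99, 7.84 and 7.69 FPKM in drought, 12.9, 16.8 and 16.8 FPKM in heat and 4.10, 5.11 and 5.97 FPKM in control, and BnaC02g38330D had 7.76, 10.1 and 7.98 FPKM in drought, 18.5, 17.8 and 16.4 FPKM in heat and 7.03, 7.32 and 7.72 FPKM in control. Heat stood above both other groups in these copies, by 1.45 ± 0.15 SE and 1.15 ± 0.10 SE against control (limma adjusted p = 5.70e-06 and 1.99e-06). The most abundant copy, BnaA06g30470D, had 20.6, 18.0 and 16.4 FPKM in drought, 19.6, 16.1 and 17.7 FPKM in heat and 11.5, 13.2 and 11.5 FPKM in control, with drought and heat overlapping each other and both above control. It changed by 0.56 ± 0.10 SE in drought and 0.52 ± 0.10 in heat, and BnaC07g49210D by 0.66 and 0.65. With copies summed, GFA2 was at 0.54 in drought and 0.93 in heat and was not called in either.

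Of the 12 plastid genes, 3 were called higher in heat, or 2 of 11 without the gene that heat alone brought above the level, a share of 18.18% beside 14.4% over all genes tested. NdhT is not among the 12. limma called 0 of the 12 in drought, where 6 were higher and 2 lower at an unadjusted p under 0.05 and voom also called 0. Plastid type A relatives work with the stromal HSP70, and those of AT2G22360 and AT4G39960 take part in iron and sulfur cluster assembly in Arabidopsis. The gene BnaC04g34720D of AT2G22360 had 59.7, 57.4 and 64.8 FPKM in drought, 92.7, 90.28 and 93.7 FPKM in heat and 42.0, 39.3 and 42.7 FPKM in control, highest in heat without overlap. It rose in heat by 1.14 ± 0.06 SE (limma adjusted p = 1.47e-08), while the other copy, BnaA04g12800D, was at -0.13 in heat and 0.60 in drought. AT3G17830 gave the other rises. BnaA05g22410D had 1.84, 2.51 and 1.70 FPKM in drought, 8.15, 7.77 and 7.32 FPKM in heat and 0.934, 0.720 and 1.71 FPKM in control, a rise of 2.07 ± 0.17 SE in heat (limma adjusted p = 1.11e-06), and BnaC05g35680D, which needed the heat libraries to reach the level, was at 4.43 ± 0.251 FPKM in heat and 0.710 ± 0.355 FPKM in control.

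J20, a short J protein that brings the first enzyme of the plastid isoprenoid pathway to HSP70 for its quality control, was not called against control in any of its 4 genes. Its most abundant copy, BnaCnng20870D, had 200.9, 187 and 207 FPKM in drought, 116, 122 and 111 FPKM in heat and 123, 120.4 and 120.5 FPKM in control. Drought lay above the rest without overlap, while heat and control overlapped. The change was 0.70 ± 0.05 SE in drought, with a limma adjusted p = 4.02e-07 but under the fold threshold, and -0.06 ± 0.05 in heat. BnaA04g06570D was at 0.92 in drought and -0.74 in heat, and BnaAnng08930D at 0.83 and -0.00. With TMM factors 1 plastid gene was called higher in drought, and in heat 2 were called higher and 1 lower. The copy BnaCnng33760D of AT1G80030 was not called either, at 98.9 ± 0.969 FPKM in drought, 96.6 ± 3.62 FPKM in heat and 96.9 ± 5.87 FPKM in control.

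ARG1 and its relatives ARL1 and ARL2 act in root and shoot gravitropism in Arabidopsis. limma called 0 of their 8 genes in drought, where 2 were higher and 1 lower at an unadjusted p under 0.05 and voom also called 0. In heat 1 of the 8 rose, a share of 12.5%, near the 14.4% over all genes tested. That gene, BnaAnng10480D of ARL1, was among those that reached the level through the heat libraries alone, at 2.21, 2.80 and 2.24 FPKM in heat, against 0.129, 0.255 and 0.257 FPKM in control. The most abundant, BnaA07g27040D of ARG1, had 24.3, 25.2 and 26.8 FPKM in drought, 18.3, 19.98 and 21.2 FPKM in heat and 17.7, 19.8 and 21.9 FPKM in control. Heat and control overlapped, and the changes of 0.35 ± 0.09 SE in drought and 0.01 ± 0.09 in heat were small.

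The other 43 genes, J proteins with the J domain alone or of a class not assigned here, held the largest rises and the largest falls. In drought 7 rose, and in heat 16 rose and 2 fell, with 13 rises among the 40 genes that did not need the heat libraries to reach the level. The 7 are 16.3%, beside 5.12% over all genes tested. In heat the 13 are 32.5%, beside 14.4%, and the 2 falls among the 43 are 4.65%, beside 11.2%. The gene with the largest change in either treatment was BnaC06g32130D of AT1G71000, a short J protein. It had 43.4, 40.4 and 46.3 FPKM in drought, 196, 216 and 193 FPKM in heat and 0.311, 0.154 and 0.465 FPKM in control, the control values resting on 6 reads in all. Control was near 0, drought well above it and heat higher again. The log2 change was 5.09 ± 0.10 SE in drought (limma adjusted p = 6.89e-12) and 7.28 ± 0.10 in heat (adjusted p = 3.64e-13).

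Both other copies of AT1G71000 were lower, with the groups in the same order. BnaA02g15280D had 3.70, 2.82 and 3.36 FPKM in drought, 63.9, 59.3 and 62.1 FPKM in heat and 0, 0.160 and 0.161 FPKM in control, with 2 reads in control over 3 libraries. BnaA10g05180D had 0 reads in control, and 1.99, 0.655 and 0.632 FPKM in drought and 10.6, 13.5 and 9.80 FPKM in heat. Against a floor of 3 counts over the control group, it was at least 6.83-fold higher in drought and at least 71.3-fold higher in heat. BnaA10g05180D needed the heat libraries to reach the level.

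AT3G13310 and AT1G56300, loci of short J proteins too, rose mainly in heat. BnaC05g40060D of AT3G13310 had 4.06, 6.003 and 7.57 FPKM in drought, 196, 199.8 and 197 FPKM in heat and 0.810, 1.77 and 1.29 FPKM in control, a rise of 1.57 ± 0.19 SE in drought (limma adjusted p = 3.31e-05) and 6.46 ± 0.19 in heat (adjusted p = 1.33e-10). Heat stood far above drought and drought above control, without overlap. The most abundant copy in control, BnaC01g37760D, had 42.8, 35.1 and 43.0 FPKM in drought, 100.3, 108 and 107 FPKM in heat and 11.5, 16.1 and 14.2 FPKM in control, in the same order of groups. The 3 remaining copies rose in heat by 2.85, 2.87 and 2.99, to means of 15.02 ± 0.700 FPKM, 10.2 ± 0.999 FPKM and 11.98 ± 1.40 FPKM. The second of them, BnaA03g32750D, needed the heat libraries to reach the level.

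BnaAnng20610D of AT1G56300 had 1.94, 3.66 and 3.20 FPKM in drought, 115, 119.8 and 119.6 FPKM in heat and 1.69, 0.839 and 0.338 FPKM in control. Heat was high in every library, and drought lay above control by a narrow margin. The rise in heat was 5.99 ± 0.23 SE (limma adjusted p = 1.46e-09). Its call in drought, at 1.04 ± 0.23 SE, was lost without drought replicate 2 (0.90), drought replicate 3 (0.98) or control replicate 3 (0.79). The other copy, BnaC01g27270D, had 1.94, 2.24 and 1.39 FPKM in drought, 74.1, 72.5 and 77.7 FPKM in heat and 0.155, 0.154 and 0.775 FPKM in control, and 7 reads in control.

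AT1G72416 and a copy of AT1G61770 rose in heat and were not called in drought. BnaC06g33610D of AT1G72416 had 1.02, 3.86 and 3.40 FPKM in drought, 24.0, 18.0 and 22.02 FPKM in heat and 2.28, 2.26 and 1.46 FPKM in control, a rise of 2.90 ± 0.28 SE in heat (limma adjusted p = 3.63e-06) and a change of 0.24 ± 0.28 in drought. Drought and control overlapped. BnaC01g29900D of AT1G61770 had 6.91, 7.90 and 7.02 FPKM in drought, 33.0, 28.8 and 27.6 FPKM in heat and 7.33, 8.73 and 7.57 FPKM in control, a rise of 1.79 ± 0.10 SE in heat (limma adjusted p = 3.01e-08) beside -0.10 ± 0.10 in drought. The copies BnaA01g36440D and BnaC04g19020D of that locus were at 0.69 and 0.67 in heat, under the threshold.

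**Figure D4:**
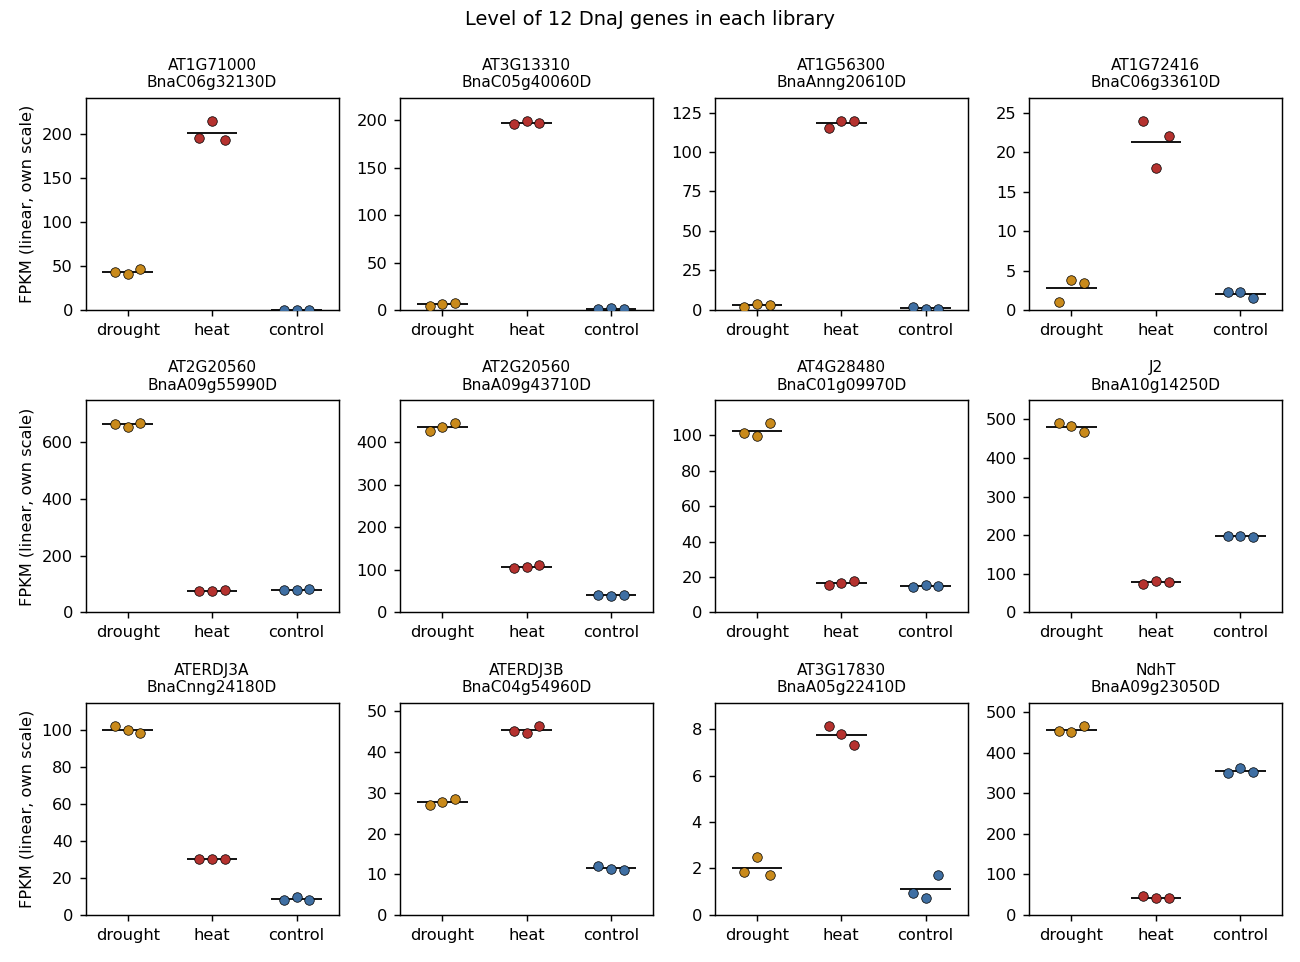
FPKM of 12 DnaJ genes in each library (points) with the group mean (line), in drought, heat and control, each panel on its own linear scale from 0. The top row holds genes that are highest in heat, such as BnaC05g40060D at 198 FPKM on average, and the second row genes that are highest in drought. BnaA09g23050D of NdhT, at the lower right, has a heat mean of 42.9 FPKM against a control mean of 355 FPKM.

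The largest falls in heat were in NdhT, a J-like subunit of the chloroplast NADH dehydrogenase-like complex, which carries cyclic electron flow around photosystem I. BnaA09g23050D had 454, 450.5 and 467 FPKM in drought, 46.8, 41.2 and 40.7 FPKM in heat and 349, 362 and 352 FPKM in control, and BnaC09g25750D had 321, 326 and 334 FPKM in drought, 46.9, 51.3 and 39.9 FPKM in heat and 181, 192 and 192 FPKM in control. In both copies heat was lowest and drought highest, without overlap. The log2 change in heat was -3.02 ± 0.05 SE for BnaA09g23050D (limma adjusted p = 2.15e-12) and -2.02 ± 0.07 SE for BnaC09g25750D (adjusted p = 1.06e-09). In drought both stayed under the fold threshold, at 0.36 and 0.79. Next to NdhT, the highest control level among these 43 genes was that of AT1G77930 (BnaA07g20760D), at 83.6 ± 2.45 FPKM in drought, 33.7 ± 2.39 FPKM in heat and 57.8 ± 1.55 FPKM in control.

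Genes for short proteins held many of the rises in heat, and protein length had no part in the choice of genes. The 101 proteins are 122 to 985 residues long, with a median of 346. Of the 20 genes for proteins of up to 200 residues, a limit chosen after the values were seen, 14 rose in heat and 7 rose in drought. Of the 81 longer ones, 17 rose and 6 fell in heat, and 10 rose in drought. Among all genes tested, 17.5% of those with proteins up to that length rose in heat and 13.3% of the longer ones did. In drought these shares were 7.8% and 4.4%.

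The 14 genes were every tested copy of 5 loci, namely AT1G71000, AT3G13310, AT1G56300, AT1G72416 and AT2G33735. AT2G33735 codes for the shortest of them, and its copies rose in heat by 1.28 (BnaA05g09930D) and 1.03 (BnaCnng05340D). J20 and AT2G41000, the other 2 loci with short proteins, had 6 genes at -0.74 to 0.39 in heat, below the size a call needs. Without the genes that needed the heat libraries to reach the level, 11 of 17 short ones rose in heat. The 20 genes come from 7 loci, so they are not independent of each other, and the difference by length is given as a count with no test.

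**Figure D5:**
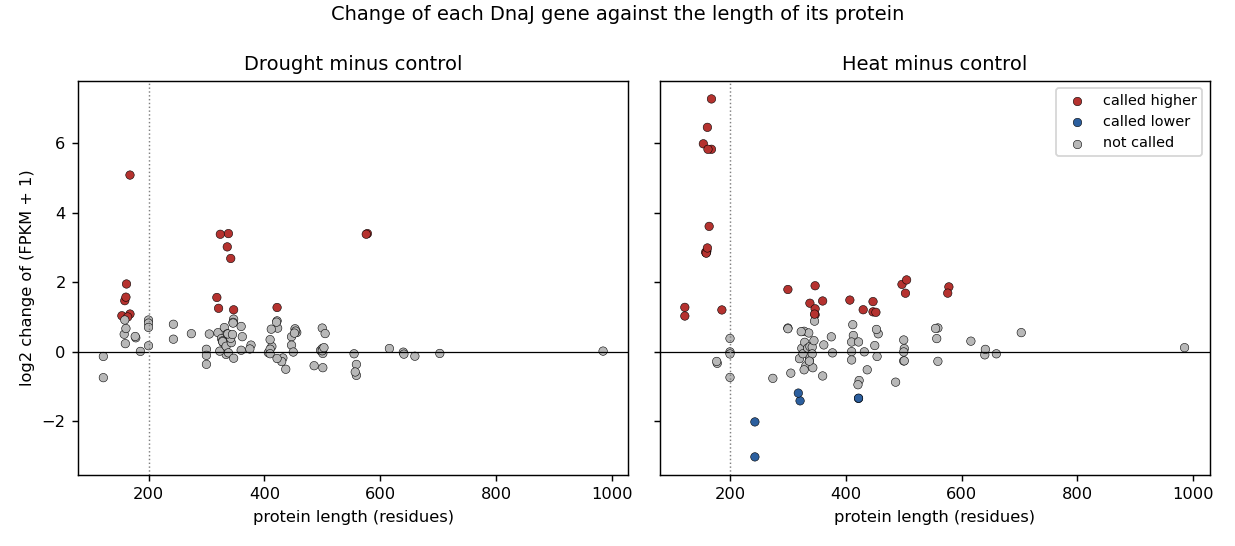
Log2 change of (FPKM + 1) of the 101 DnaJ genes in drought minus control (left) and heat minus control (right) against the length of the encoded protein in residues, coloured by call as red for higher, blue for lower and grey for not called. The dotted line marks the limit of 200 residues, left of which 7 of 20 genes are called higher in drought and 14 of 20 in heat.

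Heat set directly against drought gave counts that varied by role. Of the 101 genes, 24 were higher and 18 lower in heat than in drought, beside 17.5% higher and 11.1% lower over all genes tested. With TMM factors, which shift the median of all genes by -0.22 in this comparison, the counts were 20 higher and 24 lower, and with quantile normalization 19 and 19. The median of the 101 genes went from 0.13 to -0.15 with TMM factors and to -0.07 with quantile normalization, so no direction is given for the whole group. Of the cytosolic genes, 4 of 4 of type A and 8 of 21 of type B were called lower in heat than in drought, and 13 of type B were not called. Of the 101 genes, 39 were higher and 37 lower in heat than in drought without overlap, beside 71.8% of all genes tested with groups apart. The 42 genes called all had groups apart, but a call selects for such separation. Mitochondrial genes had 3 of 6 higher in heat than in drought, and the other J proteins 17 of 43 higher and 3 lower. Without the genes that needed the heat libraries to reach the level, these were 1 of 4 higher for the mitochondrial genes and 14 of 40 higher for the other J proteins.

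The largest differences downward were in NdhT, with -3.39 for BnaA09g23050D, and in AT2G20560, with -3.28 for BnaA01g08430D and -3.11 for BnaA09g55990D. J2 copies were between -2.61 and -1.51 on the log2 scale. ERDJ3A was lower in heat than in drought, by -1.69 ± 0.07 SE in BnaCnng24180D (limma adjusted p = 3.42e-09), while 4 of the 5 ERDJ3B genes were not called and BnaC06g43160D was higher in heat. The largest differences upward were 4.95 ± 0.23 SE in BnaAnng20610D and 4.89 ± 0.19 SE in BnaC05g40060D, with limma adjusted p-values of 6.10e-09 and 1.14e-09 in the same order.

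Copies of 1 Arabidopsis locus were in part called differently. Of the 36 loci with 2 or more genes, 5 had every gene called the same way in drought, 3 had some called and others not, and 28 had none called. In heat 9 loci had every gene called the same way, 9 had a mixture and 18 had none called. Of the 101 genes, 52 lay above and 6 below control without overlap in drought, and 55 above and 19 below in heat. Over all genes tested, groups were apart for 54.7% and 71.4% in those comparisons. The 17 genes called in drought and the 37 called in heat all had groups apart, but a call selects for such separation. Identity to the Arabidopsis protein ranged from 63.4% to 95.7% with a median of 84.1%.

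The related InterPro entry IPR001623, DnaJ domain, was the assigned entry of 78 genes tested. Whether they also carry the conserved site is not given. Of these 78, 10 rose (12.8%) and 2 fell (2.56%) in drought, beside 5.12% and 6.87% over all genes tested. In heat 15 rose (19.2%) and 6 fell (7.69%), beside 14.4% and 11.2% over all. At 3 loci with the conserved site, AT4G19590, AT5G25530 and AT5G53150, none of the 11 genes reached the level.

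The partners of J proteins were tested in the same fit. HSP70 genes had 25 of 65 higher and 4 lower in drought and 10 higher and 31 lower in heat. Hsp70b (BnaA06g10730D), a cytosolic HSP70 of the heat-shock response, had 863, 830.0 and 805 FPKM in drought, 32.9, 32.7 and 32.3 FPKM in heat and 2.13, 2.26 and 2.37 FPKM in control. HSP110 genes, relatives of HSP70 that exchange its nucleotide, had 4 of 11 higher in drought and 3 higher in heat. The shares are 36.4% and 27.3%, beside 5.12% and 14.4% over all. The cytosolic HSP91 (BnaA06g00870D) rose by 1.74 in drought and was at -0.58 in heat, while AT4G16660 (BnaC01g19960D) rose by 1.20 in drought and 1.83 in heat.

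Further exchange factors and BAG proteins had 7 of 37 higher in drought and 9 higher and 4 lower in heat. The 7 are 18.9%, beside 5.12% over all genes tested. The 4 are 10.8%, near the 11.2% over all genes tested, and the 9 are 24.3%, beside 14.4%. BAG6 (BnaA05g01560D), which binds calmodulin and HSP70, rose by 6.55 in drought and 2.43 in heat, and BAG1 (BnaA03g12820D) changed by -3.97 in heat and -0.69 in drought. Small heat-shock proteins, which hold unfolded proteins for HSP70, had 35 of 39 higher in drought and 32 higher in heat. The shares are 89.7% and 82.05%, beside 5.12% and 14.4% over all. HSP18.2 (BnaA03g09300D) rose by 9.03 and 7.50 in drought and heat, and AT1G53540 (BnaA02g06890D) by 7.65 and 9.71.

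HSP90 genes had 11 of 29 higher in drought and 6 higher and 9 lower in heat. The 11 are 37.9%, beside 5.12% over all genes tested. In heat the shares are 20.7% up and 31.0% down, beside 14.4% and 11.2%. HSP90.1 (BnaC09g28660D) rose by 2.83 in drought, and Hsp81.4 (BnaA03g11110D) fell in heat, with a log2 change of -2.98. HSP100 disaggregases, which pull proteins out of aggregates together with HSP70 and J proteins, had 10 of 11 higher in drought. The 10 are 90.9%, beside 5.12%. In heat the log2 changes of the 11 genes lay between -0.75 and 0.77, below the size a call needs. HSP101 (BnaA07g22300D) had 261, 254 and 240.4 FPKM in drought, 3.54, 5.37 and 4.22 FPKM in heat and 2.67, 2.65 and 1.73 FPKM in control, and the mitochondrial CLPB4 (BnaA09g55830D) was at 2.95 in drought and 0.77 in heat. Heat-shock transcription factors had 25 of 48 higher in drought and 8 higher and 2 lower in heat. The 25 are 52.1%, beside 5.12% over all genes tested, while the 8 are 16.7%, near the 14.4% over all. The 2 are 4.17%, beside 11.2%. HSFA7A (BnaA03g41540D), listed at 0 in the control libraries, had 26.2, 25.3 and 24.8 FPKM in drought and 0.805, 1.11 and 0.543 FPKM in heat. HSFA3 (BnaCnng02620D) rose in heat, at 16.7, 16.7 and 17.38 FPKM in heat, against 0.392, 0.841 and 0.261 FPKM in control.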

How the data were processed

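The submitters' processing notes name HISAT2 as the aligner; its version, the build, the annotation and the counter are not stated there. The values deposited by the authors were taken as FPKM because, times coding length, about 99.4% of values above 0 in each library were whole multiples of 1 step within 0.01, in all libraries for 87975 genes, the 101 DnaJ genes among them. RPKM would describe them equally well. The code in the name of the deposited file and its gene models put the value columns with Brassica napus.

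Tests were run on genes that reached 1 FPKM in 3 or more of 9 libraries. limma 3.58.1 in R 4.3.3 (version 1.17.8 of data.table) fitted 1 mean per group on log2(FPKM + 1) over the 9 libraries, with mean-variance trend and robust moderation, and Benjamini-Hochberg adjustment over all 44260 tested genes. Calls needed an adjusted p under 0.05 with a log2 change of 1 or more in size. The fit was also run on simulated data, whose outcome is not given here and from which nothing is concluded. The members, roles, partner lists and rules were chosen with earlier results of these data known.

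Named genes are the 8 largest rises and 6 largest falls per treatment whose higher group averaged 5 FPKM or more, with no overlap with control, 1 per locus, genes called in opposite directions, the most abundant gene of each role, and for each partner list the largest change per treatment at 10 FPKM or more. Further copies of their loci, low genes and short proteins were named after their values were seen. Alternatives were TMM (trims of 30% and 5%) and quantile scaling, no moderation, a pseudocount of 0.1, no filter or a filter of 5 FPKM, a replicate block, only the groups compared, copies summed, no fold threshold, members by description, voom on recovered reads and leaving out each library. Figures were drawn with Matplotlib 3.10.9, and tables made with pandas 2.3.3 and NumPy 2.4.6 in Python 3.11.15.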

Additional observations from a re-analysis of the deposited data

How the results depend on the processing

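Without the fold threshold, 51 rose and 6 fell in drought, 48 and 19 in heat, and 39 were higher and 36 lower in heat than in drought. Many of all 44260 genes also pass without that threshold. At an unadjusted p under 0.05 in limma, 9843 of them were higher and 13283 lower in drought. The numbers were 18451 and 12663 in heat, and 19619 and 12224 in heat against drought. Taking genes by description (272 tested), with the fold threshold kept, gave 29 and 3 in drought, 59 and 21 in heat, and 45 and 44 in heat against drought. The shares are 10.7% and 1.10%, 21.7% and 7.72%, and 16.5% and 16.2%. Over all genes tested they were 5.12% and 6.87%, 14.4% and 11.2%, and 17.5% and 11.1%. With copies summed over 38 loci, 6 loci rose in drought, 10 rose and 2 fell in heat, and 9 were higher and 6 lower in heat than in drought. With a filter of 5 FPKM, which tests fewer genes, 17 rose in drought, 25 rose and 6 fell in heat, and 16 were higher and 18 lower in heat than in drought, so that lower calls outnumbered higher ones. Leaving out each library gave 16 to 17 rises and 0 to 1 falls in drought, the 1 without control replicate 2, 30 to 31 rises and 6 falls in heat, and 23 to 24 higher and 18 to 19 lower in heat than in drought. The cause of these differences was not tested, beyond the wider or narrower set counted. Shares over all genes or loci are not given for summed copies, the filter of 5 FPKM and left-out libraries. The same holds for adjusted p without the fold threshold, so these counts cannot be read as an excess. Reversal of calls was checked for the named DnaJ genes only. None of their 60 changes over all comparisons was called in the opposite direction under any setting fitted gene by gene. The balance of higher and lower counts in heat against drought did change with the scaling and the filter.

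Same-numbered libraries of different groups deviated with correlations of -0.018 to 0.026, so no effect shared by equal numbers was seen. Whether equal numbers were handled together is not stated, and such a check cannot exclude it. The fit with the replicate block gave the same counts, 17 and 0 in drought, 31 and 6 in heat, and 24 and 18 in heat against drought. Low copies carry wide counting error, since 12.2 to 12.9 reads stand behind 1 FPKM at 1 kb.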
